A study of Rattus norvegicus with 3 samples.

Results

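The glutathione enzymes Gsta3, Gstp2 and Gpx2 were followed along the crypt-villus column of the rat jejunum. They were taken by gene symbol from a microarray value table of 6653 probes, 4820 of which carry 1 symbol and stand for 4379 genes. Each enzyme has 1 probe, so the set is 3 of 4379 genes. The 3 were chosen by their log2 values on these same arrays, high in crypt and low at the villus top, so their levels and differences below are a description.

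The samples came from male Sprague-Dawley rats aged 6 weeks, with no treatment or genetic change named. Frozen jejunum was sectioned transversely at 10 µm, and each fraction joined 10 sections, or 100 µm of a column that typically gave 7 fractions. The crypt sample was fraction 6 from the villus top, the middle villus sample fraction 4 and the top villus sample fraction 1. There was 1 sample per part, so differences lack replicates and carry no p-values. The number of animals per sample is not stated in the labels. A section holds epithelium together with the tissue under it, and in such bulk samples fewer cells of a type cannot be told apart from less RNA per cell.

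Glutathione is the main small thiol of the cell. Glutathione transferases couple it to electrophilic toxins and to products of lipid oxidation, which are then pumped out of the cell. Glutathione peroxidases use it to reduce hydrogen peroxide and lipid hydroperoxides, and glutathione reductase restores the oxidised form. The intestinal epithelium meets such compounds from food, bile and bacteria, and many of these genes answer to the transcription factor NRF2 through antioxidant response elements.

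Gsta3 (Entrez 494500) encodes an alpha-class transferase subunit and lies on chromosome 9 of the GRCr8 assembly, at chr9:31154989-31180653. Gpx2 (Entrez 29326) encodes the gastrointestinal glutathione peroxidase, a selenoenzyme, and lies on chromosome 6, at chr6:101226745-101230033. Gstp2 (Entrez 29438) is a pi-class transferase by the platform's annotation. Its Entrez number is not in the RefSeq table used here, which lists Gstp2 as a synonym of Gstp1, so which pi-class transcript the probe reads is uncertain.

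The start regions of Gsta3 and Gpx2 each hold the core of an antioxidant response element, TGACNNNGC, and are shown for that reason. Each window runs from 250 bases before to 50 bases after the annotated start on the gene's strand, is taken from RefSeq (GRCr8), and has the core in capitals. In Gsta3 the core begins 17 bases before the start, on the gene's strand. In Gpx2 it begins 13 bases before the start and reads on the opposite strand, so that its reverse complement is in capitals.
Gsta3, chr9:31154739-31155038, plus strand: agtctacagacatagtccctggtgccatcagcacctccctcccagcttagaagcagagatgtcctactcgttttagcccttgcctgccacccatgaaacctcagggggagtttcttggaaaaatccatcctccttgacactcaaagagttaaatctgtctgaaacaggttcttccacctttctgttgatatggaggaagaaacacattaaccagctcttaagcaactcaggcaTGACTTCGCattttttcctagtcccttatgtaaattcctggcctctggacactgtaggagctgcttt
Gpx2, chr6:101229984-101230283, minus strand: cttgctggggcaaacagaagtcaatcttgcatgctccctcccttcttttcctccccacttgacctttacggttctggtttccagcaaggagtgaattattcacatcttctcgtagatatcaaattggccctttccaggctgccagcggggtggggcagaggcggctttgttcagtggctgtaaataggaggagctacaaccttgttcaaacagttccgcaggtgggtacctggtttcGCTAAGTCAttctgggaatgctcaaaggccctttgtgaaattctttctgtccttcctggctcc

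Read in the direction of the motif, the matches and their flanks compare as follows, with those of the alpha-class genes Gsta1 and Gsta2 beside them. The Gsta2 match lies near the end of its window, which shortens one flank.
Gsta3: caggcaTGACTTCGCattttt
Gpx2: ccagaaTGACTTAGCgaaacc
Gsta1: caggcaTGACTTTGCattttt
Gsta2: agtacTGACCTAGCgagagt
Of all 33469 windows of this length, 12.1% hold TGACNNNGC on either strand. A second annotated start of Gsta3 has no match. Neither gene's windows hold ATCAAAG, a binding sequence of TCF/LEF factors found in 3.63% of windows, or the TATA box TATAAA, found in 14.2%. A match is a description of letters and not of a bound site.

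Along the column, all 3 enzymes were lowest at the top of the villus and highest in crypt, with middle villus nearer to crypt than to the top. The deposited log2 value of Gsta3 was 13.41 in crypt, then 12.60 in middle villus and 6.89 in top villus. Those of Gstp2 were 13.94 in crypt, 12.41 in the middle and 9.78 at the top. Those of Gpx2 were 11.48 in crypt, 10.36 in the middle and 7.22 at the top. Each value lay above the level that marks the lowest 25% of its column, which is called dim here and stood at 6.05 in crypt, 4.15 in middle villus and 5.15 at the villus top. The least margin was that of Gsta3 in top villus, 1.74 above it on the log2 scale. Levels of different probes are on no common scale, so the genes are compared by their differences.

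**Figure D1:**
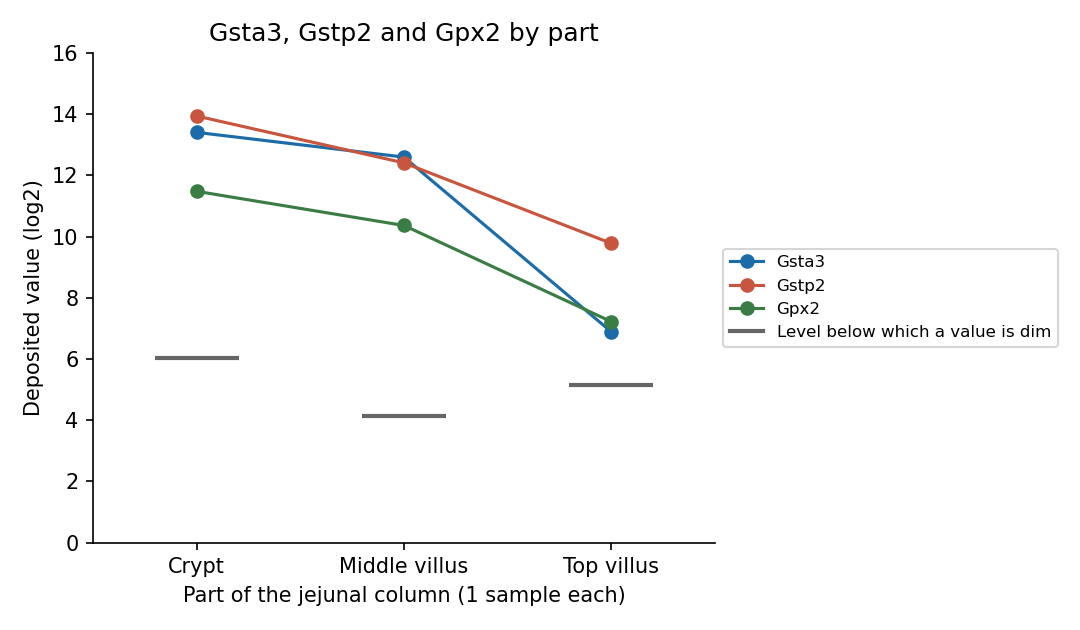
Deposited log2 values (y axis) of Gsta3, Gstp2 and Gpx2 in crypt, middle villus and top villus (x axis), 1 point per sample. Grey bars mark the dim level of each column. All 3 lines are lowest at the top of the villus, at 6.89, 9.78 and 7.22, and every point lies above its grey bar.

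Between the ends of the column, Gsta3 was 91.5-fold lower in top villus than in crypt, a log2 difference of -6.52. Gpx2 was 19.1-fold lower (-4.26) and Gstp2 17.9-fold lower (-4.16). All 3 therefore passed a limit of 2-fold, as did 39.5% of the 3932 genes compared, on the lower side. Since this contrast served to choose the genes, nothing is read from that count. Counted from the most negative of the 2735 genes measured in both parts, Gsta3 stood at place 3, Gpx2 at place 40 and Gstp2 at place 49.

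The available error is how far probes for one gene differ, which covers neither animals nor hybridisations. Its pooled SD was 0.91 for log2 differences between top villus and crypt (206 genes), so that 2 SD came to 3.55-fold. In units of this SD the differences were -7.13 for Gsta3, -4.66 for Gpx2 and -4.55 for Gstp2. The difference between Gsta3 and Gstp2, 2.36 on the log2 scale, was the widest between members.

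Middle villus differed less from crypt. Gstp2 was 2.89-fold lower there (-1.53), Gpx2 2.17-fold lower (-1.12), and Gsta3 was within the limit at -0.81. So 2 of the 3 genes were called lower, against 29.5% of the 3825 genes compared. The values of all 3 lay under 2 SD between probes for this comparison, 3.49-fold, so a step between crypt and middle villus did not exceed that error. These values too were in view when the genes were chosen, and nothing is read from the count. Over all genes 730 were higher and 1127 lower in middle villus, and under quantile normalization 935 and 940, so the balance of this comparison depends on the scaling.

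From middle villus to the top the 3 genes stood far apart. In top villus Gsta3 was 52.3-fold lower than in middle villus (-5.71), Gpx2 8.83-fold lower (-3.14) and Gstp2 6.19-fold lower (-2.63). For scale, 2 SD between probes came to 4.27-fold. All 3 were called lower, as were 27.4% of the 3768 genes compared, and since the genes were chosen on these columns nothing is read from that count either.

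The upper step made up 87.6% of the log2 difference between top villus and crypt in Gsta3, 73.8% in Gpx2 and 63.2% in Gstp2. These shares were computed after the values had been seen, and all 3 lay between the quartiles of comparable genes. Among the 920 genes measured in all 3 parts and at least 2-fold lower in top villus than in crypt, the median share was 62.7%, with quartiles of 27.4% and 92.2%. In 483 of these 920 genes the middle villus value was within 2-fold of crypt, as in Gsta3. Stmn1, a microtubule regulator of dividing cells, had the opposite course, with -4.55 in middle villus and -4.46 in top villus, both against crypt.

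**Figure D2:**
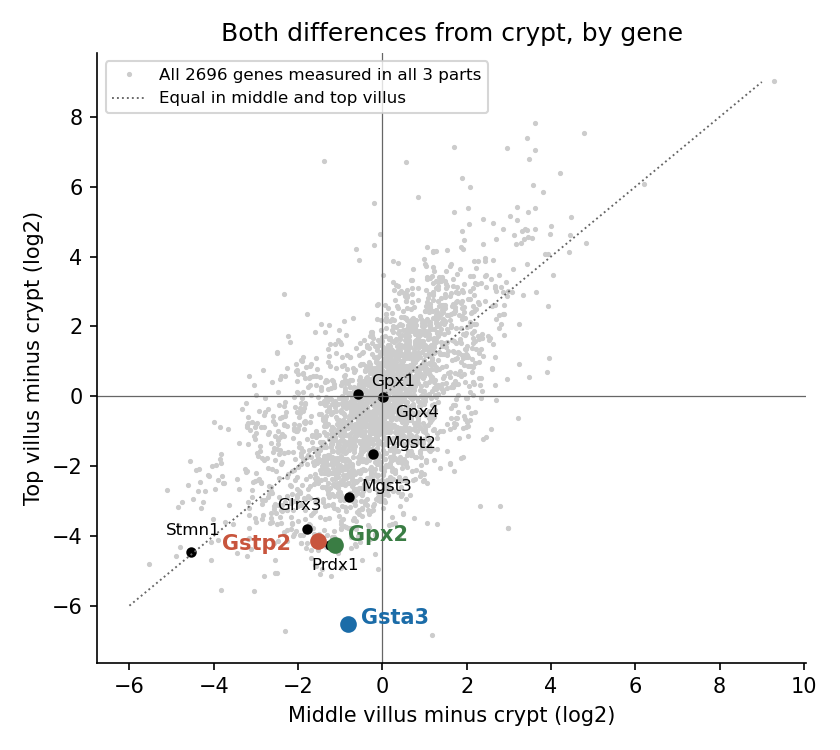
Log2 difference of middle villus from crypt (x axis) against that of top villus from crypt (y axis) for the 2696 genes measured in all 3 parts (grey points), with the 3 enzymes in colour and related genes in black. On the dotted line middle and top villus are equal. Gsta3, Gpx2 and Gstp2 lie far below that line, Stmn1 lies on it at about the same depth as Gpx2, and Gpx1 and Gpx4 lie near 0 on both axes.

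The other alpha-class transferases on the table were all dim at the villus top and differed from each other in middle villus. Gsta2, whose product is a major transferase of rat liver, has 2 probes, with log2 values of 11.52 and 11.78 in crypt, 12.36 and 12.76 in middle villus and dim values of 1.13 and 5.11 at the villus top. It was thus at least 90.5-fold lower in top villus than in crypt, and within 2-fold of crypt in middle villus (0.91). Gsta4, whose product conjugates the lipid oxidation product 4-hydroxynonenal, had 10.14 in crypt, 9.67 in middle villus and a dim 5.07 at the villus top. It was at least 31.9-fold lower at the top than in crypt.

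Gsta1 had the smallest bound of the class, with 6.35 in crypt, 5.30 in middle villus and a dim value in top villus, at least 2.29-fold lower at the top than in crypt. Unlike Gsta3, it was called lower in middle villus than in crypt (-1.05). Its bound between top and middle villus was only -0.15. Gsta1, Gsta2 and Gsta4 entered this comparison through their crypt values alone and could not have been called higher at the top, so no count is read over them. Alpha-class genes are similar in sequence, and how far 1 probe also reads a relative was not tested.

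Of 9 mu-class genes listed, 3 are on the table, and no course of the class is read from them. Gstm4 was dim in crypt, with 8.92 in middle villus and 8.21 in top villus, and was at least 4.48-fold higher at the top than in crypt. Gstm5 had 6.11 in crypt, a dim 3.68 in middle villus and 7.54 at the villus top, 2.69-fold higher at the top than in crypt. Its crypt value lay just above the dim level of 6.05. Gstm6l lay within the limit, as a bound. Gstm4 and Gstm6l, dim in crypt, entered this comparison through their top villus values and could not have been called lower, so no count is read over the class. Of the remaining cytosolic and mitochondrial transferases, kappa-class Gstk1 had 7.47 in crypt, 8.50 in middle villus and a dim value in top villus, a bound of -2.32 on the log2 scale against crypt. Hpgds, the sigma-class prostaglandin D synthase, was dim in crypt and middle villus and had 5.72 in top villus, which gave a bound of 0 against crypt.

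Microsomal transferases, a separate membrane family, differed in their courses. Mgst1, dim at the top, could not have been called higher there, and Ltc4s, dim in crypt, could not have been called lower. No count is therefore read over this family. Mgst1 had 10.39 in crypt and was dim in middle villus (1.57) and top villus (-0.06), so it was at least 37.8-fold lower in top villus and at least 75.7-fold lower in middle villus than in crypt. Mgst3 had 12.19 in crypt, 11.41 in middle villus and 9.30 at the villus top, and Mgst2 had 11.73, 11.50 and 10.08 in the same order. In top villus against crypt they were 7.44-fold and 3.15-fold lower. Mgst1 was thus already low in the middle of the villus, unlike the 3 enzymes and unlike Mgst2 and Mgst3. Ltc4s, the leukotriene C4 synthase of this family, was at least 3.29-fold higher at the top than in crypt, and Alox5ap was dim in all parts.

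Of the other glutathione peroxidases that could be compared between top villus and crypt, neither passed the limit. Gpx1, the general cytosolic peroxidase, had 10.90 in crypt, 10.33 in middle villus and 10.97 at the villus top, a log2 difference of 0.07 between top villus and crypt. Gpx4, which reduces lipid hydroperoxides within membranes, had 10.33, 10.35 and 10.32 in crypt, middle villus and top villus, a difference of -0.01. Gpx7 was dim in all 3 parts, and Gpx8 was measured in middle villus, at 5.32. The lower one of the 3 peroxidases compared between top villus and crypt was Gpx2, which was chosen on this contrast, so no count is read.

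**Figure D3:**
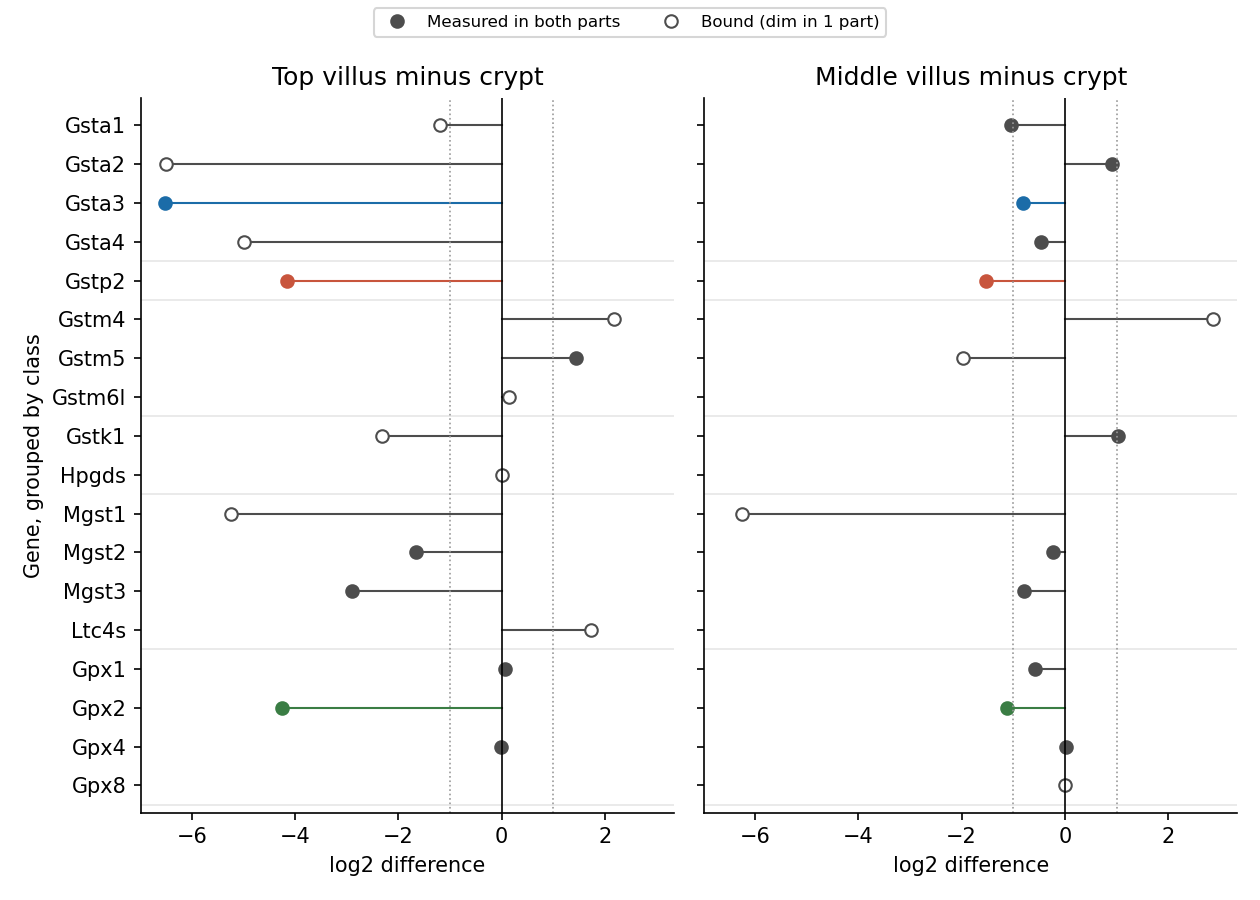
Log2 differences (x axis) of top villus from crypt (left) and of middle villus from crypt (right) for the glutathione transferase and peroxidase genes (y axis), with Gsta3, Gstp2 and Gpx2 in colour. Open circles are bounds, where 1 of the 2 parts is dim, and dotted lines mark 2-fold. In the left panel Gsta1, Gsta2 and Gsta4 are bounds that could not lie on the higher side. Gpx1 and Gpx4 lie near 0 in both panels.

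The core motif was also looked for in the other members of both families. Of 20 genes of the transferase and peroxidase lists on the table, 14 have a start window, and 5 hold TGACNNNGC: Gsta1, Gsta2, Gsta3, Gpx2 and Gstm5. Of these 5 genes 4 were lower in top villus than in crypt and Gstm5, which has 2 matches, was higher. Of the 9 genes without a match 4 were lower (Gsta4, Gstk1, Mgst1 and Mgst3), 2 higher and 2 within the limit, and 1 was not compared. Over all genes compared, 39.5% were lower and 23.9% higher. Gsta3 and Gpx2 are among the 5 and were chosen on this contrast. Gsta1, Gsta2, Gsta4, Gstk1 and Mgst1, dim at the top, could not have been called higher. Gstm4 and Ltc4s, dim in crypt, could not have been called lower. The tally is therefore a description, and nothing is read from it.

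Of 16 genes listed for glutathione synthesis and breakdown, 4 are on the table. Those of synthesis, Gss and Gclm, differed little, and the catalytic subunit of the ligase is not among them. Gss, glutathione synthetase, had log2 differences of -0.48 in top villus and -0.08 in middle villus against crypt, and Gclm, the modifier subunit of the rate-limiting ligase, -0.69 and -0.59. The others, the peptidase genes Dpep1 and Lap3, were higher in both villus parts than in crypt. Dpep1, a dipeptidase of the brush border, was 6.02-fold higher in top villus than in crypt. Lap3, a cytosolic leucine aminopeptidase, was 42.1-fold higher over 2 probes, which both had their highest value in top villus. On this list of synthesis and breakdown 2 of 4 genes were higher at the top than in crypt and 0 lower, where 23.9% of all genes were higher and 39.5% lower.

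Of 7 genes of recycling and glutaredoxins 5 were lower and 1 was higher in top villus than in crypt, where 39.5% of all genes were lower and 23.9% higher. Their median was -1.77, beside -0.39 over all genes. Gsr, glutathione reductase, had 6.96 in crypt and was dim elsewhere, at least 3.51-fold lower at the top than in crypt and at least 7.03-fold lower in the middle. Glrx3, a glutaredoxin of iron-sulphur cluster handling, was 13.9-fold lower at the top than in crypt, with 11.11 in crypt, 9.31 in middle villus and 7.30 at the villus top. Glo1, which removes methylglyoxal with glutathione, was 6.59-fold lower, and Esd, which hydrolyses S-formylglutathione, 3.40-fold lower. Glrx, the classical cytosolic glutaredoxin, was the higher gene, at 1.60. In middle villus 4 of the 7 were lower than in crypt and 1 was higher, where 29.5% of all genes were lower and 19.1% higher.

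Transport genes were divided. Abcc2, the apical pump for glutathione conjugates, was dim in crypt and had 8.83 in middle villus and 10.03 in top villus, at least 15.8-fold higher at the top than in crypt. Abcg2, another apical pump, was at least 5.49-fold higher. Abcc3, a basolateral pump, was 3.56-fold lower, and Slc3a2, a subunit of several amino acid exchangers, 2.64-fold lower at the top than in crypt. Of 5 such genes 2 were higher and 2 lower, close to the 39.5% of all genes that were lower, and nothing is read from the count.

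Over all 9 glutathione lists without the 3 enzymes, 30 genes were compared between top villus and crypt, of which 14 were lower, 8 higher and 8 within the limit. With 39.5% of all genes lower and 23.9% higher, and a median of -0.59 beside -0.39 over all genes, these lists taken as one lay close to the background. In middle villus against crypt 7 of 28 were lower and 9 higher, where 29.5% of all genes were lower and 19.1% higher.

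Genes whose course was most like that of each enzyme were found by centring the 3 log2 values of every gene on their own mean and taking the smallest Euclidean distances among 2696 genes. With 3 parts such likeness is easily met. For Gpx2 the nearest was Prdx1, a thioredoxin-dependent peroxidase, at a distance of 0.091, followed by Mtres1, Adi1, Mipep and Hebp1, the last at 0.215. For Gstp2 they were Mrps34, Phb2, Hebp1, Mrpl28 and Nme1, at 0.158 to 0.171. For Gsta3 they were Ces1e, Dmbt1, Tmem147, Rps27l and Aadac, at 1.10 to 1.39, so Gsta3 had no close neighbour. Gpx2 and Gstp2 were 0.38 apart, and Gsta3 was 1.98 from Gpx2 and 2.28 from Gstp2. Under quantile normalization Prdx1 was again nearest to Gpx2, and Gstp2 was among its 5 nearest, at 0.20.

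The 2 probes of Prdx1 had 11.91 and 14.40 in crypt, 11.12 and 12.73 in middle villus and 7.94 and 9.83 at the villus top, so that both probes had the same order of parts. On the list of thioredoxins, peroxiredoxins, catalase and superoxide dismutases, 8 of 14 genes were lower at the top than in crypt and 1 was higher, where 39.5% of all genes were lower and 23.9% higher. Their median was -1.35, beside -0.39 over all genes, and 4 of the 14 differences are bounds. All 4 are among the 8 lower genes, were dim at the top and could not have been called higher. Nothing is therefore read from the count or the median. Prdx1 was 19.4-fold lower, and Prdx2 and Sod1, the cytosolic superoxide dismutase, were each 3.72-fold lower. The higher gene was Prdx5, a peroxiredoxin of mitochondria and peroxisomes, at 2.38. Cat, the catalase gene, was within the limit at 0.36, as were Gpx1 and Gpx4.

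Nfe2l2, the gene of NRF2, was 5.01-fold lower in top villus than in crypt, with 11.28 and 11.10 in crypt, 10.35 and 9.93 in middle villus and 8.18 and 9.55 at the villus top over 2 probes. Those of its classical targets that were listed here did not move together. Of 19 genes on the NRF2 list 5 were lower and 8 higher at the top than in crypt, where 39.5% of all genes were lower and 23.9% higher. Their median was 0.38, beside -0.39 over all genes, and 7 of the 19 differences are bounds. Cbr1, a carbonyl reductase, was 22.5-fold lower, whereas the ferritin chains Fth1 and Ftl1 were 12.5-fold and 12.1-fold higher. Nqo1, a quinone reductase, had 7.91 in crypt, a dim 2.68 in middle villus and 7.03 at the villus top. The list holds Abcc2, Gclm and Gsr of the lists above. Gsta2, Gsta4, Mgst1 and Gpx2, all lower at the top than in crypt, are not on it, nor is Prdx1. The count and median therefore describe this list alone and not NRF2 targets as a whole.

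Gpx2 has also been described in cultured human cells and in mouse as a target of Wnt signalling, which drives division in the crypt. Of 4 Wnt targets on the table Myc, Sox9 and Cd44 were compared between top villus and crypt and were lower, by at least 8.35-fold, 3.07-fold and 2.64-fold. All 3 were dim at the top and could not have been called higher, so no count is read over them. In middle villus Myc was at least 16.7-fold lower than in crypt, and Myc, Sox9 and Ephb2 were dim. Cd44 was measured there, at 4.76, and was 3.46-fold lower than in crypt. Gpx2 was 2.17-fold lower in middle villus than in crypt, and its relation to Wnt signalling was not tested.

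Markers of the labelled parts were checked next. Sums of linear levels over probes follow the brightest ones and describe 1 list across parts, never one list against another. The summed linear level of 12 markers of dividing cells was 9501 in crypt, 269 in middle villus and 336 at the villus top, with 10, 3 and 4 of them measured. That of 13 enterocyte markers was 8659 in crypt, 176188 in middle villus and 208382 at the villus top, with Apoa1 the brightest in both villus parts. Enterocyte markers did not share 1 course. In middle villus 12 of 13 were higher than in crypt, and in top villus 10 were higher and 1 lower. Among them, 3 brush-border hydrolases were lower in top villus than in middle villus: Anpep by 6.97-fold, Dpp4 by 7.70-fold and Si, dim at the top, by at least 55.7-fold. Si was also at least 7.98-fold lower in top villus than in crypt. The part of such differences between enterocytes in those of the 3 enzymes was not tested. Relative to crypt, dividing-cell markers were at 0.028 in middle villus, where Gsta3, Gpx2 and Gstp2 were at 0.571, 0.461 and 0.346.

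The summed markers of 2 other cell types had a course like that of the enzymes, high in both lower parts and low at the top. Each sum followed its brightest gene. The summed level of 3 plasma and B cell markers was 5919 in crypt, 12977 in middle villus and 50.3 at the villus top. At the top Derl3 and Tnfrsf17 were dim (Tnfrsf17 in middle villus too). Jchain gave 95.1% of the crypt sum, and it was 114-fold lower in top villus than in crypt. The summed level of 2 mast cell markers was 2894, 2256 and 476 in the same order, with Cpa3 dim at the top. Mcpt1 gave 92.1% of the crypt sum, and it was 5.63-fold lower in top villus than in crypt. Derl3, Tnfrsf17 and Cpa3 could not have been called higher at the top, so no count is read over either list. The part of these cell types in the differences of the 3 enzymes was not tested.

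Sums of the other marker lists took other courses. Goblet cell markers (3 genes) summed to 17120 in crypt, 16881 in middle villus and 16473 at the villus top, and smooth muscle and fibroblast markers (9 genes) to 9482, 8437 and 9567. Markers of Paneth cells (3 genes) summed to 10216, 5967 and 10783, which also hides members that moved both ways. Lyz2 gave 82.8% of the crypt sum and Reg3g 61.3% of the top villus sum. In top villus against crypt Reg3g was 7.83-fold higher and Lyz2 was within the limit at -0.90. Pla2g2a was dim in both villus parts, at least 7.00-fold lower at the top than in crypt. T and NK cell markers (5 genes) summed to 2954, 3011 and 4032, which hides members that moved both ways. Cd3g, 94.5% of the crypt sum, was 10.9-fold lower in top villus than in crypt, while Cd3d was 3.20-fold, Gzma 27.2-fold and Gzmb at least 19.2-fold higher. Macrophage markers (2 genes) summed to 1549, 3248 and 4732, and enteroendocrine markers (8 genes) to 7211, 6381 and 13333. The 3 tuft cell markers, which are the genes Hpgds, Ltc4s and Alox5ap described above, were dim in crypt and middle villus and summed to 277 in top villus. The goblet cell marker Clca1 was dim in top villus.

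**Figure D4:**
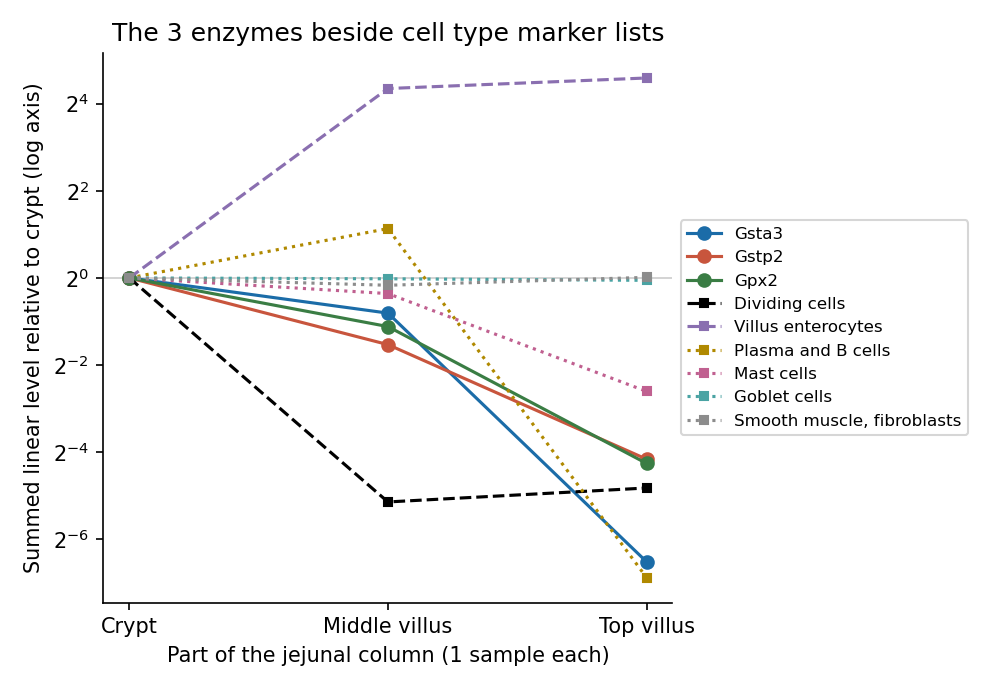
Summed linear level relative to crypt (y axis, log scale) in crypt, middle villus and top villus (x axis) for the 3 enzymes (solid lines), for markers of dividing cells and enterocytes (dashed) and for markers of other cell types (dotted), 1 sample per part. Each sum follows its brightest probes. Markers of dividing cells are at 0.028 of crypt in middle villus, where the enzymes are at 0.571, 0.461 and 0.346, and at the top the enzymes are at 0.011, 0.052 and 0.056 for Gsta3, Gpx2 and Gstp2.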

How the data were processed

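Total RNA of each cryostat fraction was extracted on silica columns and labelled with a linear amplification kit, per the labels' protocols, with Cy3 and Cy5 both listed per sample. The deposited table holds 1 column of log2 values per part. The log2 scale was read from the values, whose highest, 15.997, lies just under the log2 ceiling of a 16-bit scanner. The authors' normalization, the channel and the array's genome build are not given in the sources used here. Moreover, 3 deposited scanner files name neither spots nor samples and were left aside. With 3 arrays, precision is limited by their number.

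Symbols came from the platform annotation and were checked by Entrez number against RefSeq (GRCr8), which held 4806 of 4820 probes and changed 0 symbols. Values were compared as deposited. A value in the lowest 25% of its column was set to that level, so the difference is a bound ("at least"), not allowed to pass 0. Genes dim in both parts were left out. A gene is the mean of its probes, called at 2-fold. With 1 sample per part there was no test. The steps were tested on simulated data.

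The members and the 26 gene lists were chosen with earlier results of these data known. Genes named are all transferases and peroxidases on the table, up to 4 called genes of each other list with the largest difference in top villus against crypt, and the 5 most alike genes. Genes named beside these (Gss, Gclm, Glrx, Cat, Nfe2l2, Nqo1, Ephb2, Stmn1, Secisbp2 and the markers) were chosen after their values were seen. Python 3.11.15, numpy 2.4.6, pandas 2.3.3 and matplotlib 3.10.9 were used. Alternatives covered scaling, the dim level, the choice of probe and the fold limit.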

Additional observations from a re-analysis of the deposited data

How the results depend on the processing

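The 9 differences of Gsta3, Gstp2 and Gpx2 kept their sign and their side of the 2-fold limit under the 3 other scalings. The dim level and the choice of probe could not alter them, since each gene has 1 probe and every value lies above each dim level tried. Between top villus and crypt they ranged from -6.52 to -6.27 for Gsta3, from -4.16 to -3.92 for Gstp2 and from -4.26 to -4.01 for Gpx2. In middle villus against crypt Gpx2, nearest to the limit, ranged from -1.20 to -1.12. The median of all genes in top villus against crypt was -0.39 as deposited and -0.15 with a common median, so small differences are relative to that shift. A limit of 4-fold by construction left 477 genes higher and 866 lower in top villus against crypt, 234 and 714 in middle villus against crypt, and 519 and 515 in top villus against middle villus. Among the other glutathione genes it left 5 higher and 7 lower, 4 higher and 3 lower, and 4 higher and 6 lower in these comparisons. In middle villus against crypt 11 of them were lower without a detection filter, which lets dim values in, and 4 with a common level of log2 6, which sets more values to that level. Of the 5 genes nearest to each enzyme, quantile normalization kept 4 for Gsta3, 2 for Gstp2 and 3 for Gpx2. Signal limits the alpha class, where Gsta1, Gsta2 and Gsta4 are dim at the top. No paired analysis was possible because each part has 1 sample.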

Other observations

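Several genes of selenium supply were lower at the villus top, though not all of them. Gpx2 contains selenocysteine, and any part of selenium supply in its difference was not tested. The peroxidases Gpx1 and Gpx4 were within the limit, at 0.07 and -0.01 in top villus against crypt. Sephs2, which makes the selenium donor, had log2 values of 10.06 in crypt, 9.74 in the middle of the villus and 6.32 at its top, and was 13.4-fold lower in top villus than in crypt. Scly, which frees selenium from selenocysteine, was 11.2-fold lower, and Sepsecs, which charges the transfer RNA with selenocysteine, 7.55-fold lower. Selenbp1, a selenium-binding protein that contains no selenocysteine, had 11.40 in crypt, 9.83 in the middle and a dim 4.78 at the top, at least 76.5-fold lower at the top than in crypt. Of 9 genes on this list 5 were lower, 0 higher and 4 within the limit at the top against crypt. Over all genes 39.5% were lower and 23.9% higher. Selenbp1 is among the 5 and, dim at the top, could not have been called higher. The list's median was -1.71, beside -0.39 over all genes. Secisbp2, which directs selenocysteine insertion, was within the limit at 0.13. In middle villus against crypt 2 were lower and 7 within the limit.

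Of 5 genes that supply NADPH 4 were lower and 1 was higher in top villus than in crypt, where 39.5% of all genes were lower and 23.9% higher. Among the 4 lower genes 3 are bounds, dim at the top, that could not have been called higher. Nothing is therefore read from this count. Idh1, the cytosolic isocitrate dehydrogenase, was 5.04-fold lower, Aldh1l1 and Mthfd1, both of folate metabolism, at least 9.59-fold and 4.03-fold lower, and Me1, malic enzyme, 4.21-fold higher. Of 5 other conjugating and hydrolysing enzymes 2 were higher and 2 lower, near those shares, and nothing is read from that count either. Sult1b1, a sulphotransferase, was 4.85-fold higher and the epoxide hydrolase Ephx2 3.02-fold higher, while Sult1c2 and Ephx1 were at least 3.97-fold and 2.76-fold lower at the top than in crypt.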
